A study of Mus musculus with 4 samples.

Results

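The genes described are 39 components of transforming growth factor beta (TGF-beta) and activin signalling, named gene by gene from knowledge of the pathway: ligands, latent TGF-beta binding proteins, receptors, Smad proteins, and the extracellular and intracellular regulators of each step. They were chosen with earlier results of these data known, so their shares set beside those of all genes are descriptions and not tests. All 39 were measured, among 18193 genes in all, and 38 were called Present on at least 1 array, among 12754 such genes. Smad9 was Present on no array and was left out of every count below. Of the 38, 36 were Present on all 4 arrays, and Inhba and Fstl3 were Present only on the array of wild-type mice given chlorhexidine.

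Affymetrix mouse arrays measured total RNA of the parietal peritoneum, the serosal lining of the body wall, from C57BL/6J mice. Wild-type mice were set against SAP-BNP-Tg mice, which carry brain natriuretic peptide, a hormone of the heart, under the promoter of serum amyloid P, a protein made by the liver. Mice of each genotype received chlorhexidine gluconate (CG), an antiseptic that irritates the peritoneum, or an ethanol and PBS vehicle. CG was 0.1% in 15% ethanol and 85% PBS and was injected into the peritoneal cavity at 0.01 mL per g body weight 3 times per week for 21 days. The composition, volume and schedule of the vehicle, the age of the mice and the number of mice behind each array are missing from the sample labels. Each of the 4 groups is 1 array, so no difference between 2 arrays has a replicate check. The question the design addresses is how the peritoneum responds to CG, and how that response compares between wild-type mice and mice with the natriuretic peptide transgene.

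TGF-beta is secreted in a latent complex that binding proteins tether to the extracellular matrix, and activins are related dimers that follistatins bind and block. Released ligand brings type II and type I receptors together, and these phosphorylate receptor-activated Smads, which enter the nucleus with Smad4. The pathway drives matrix production and the mesenchymal conversion of mesothelial cells, and it is a well-studied driver of peritoneal fibrosis.

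Signals were scaled to a common trimmed mean and are given in the order wild type with vehicle, wild type with CG, transgenic with vehicle, transgenic with CG. Calling a gene higher or lower required a 2-fold difference or more between 2 arrays, a Present call on the brighter of them, and a signal there no lower than the 25th percentile of its Present probe sets, 34.5 to 35.4. A fold against an array without a Present call is a nominal lower bound, written as "at least", because its divisor is a signal not told from background. The array of vehicle-treated wild-type mice differed from the rest in some of its RNA quality controls. Its ratio of 3-prime to middle actin signal was 5.81, against 2.23 to 2.84 on the other arrays. Its scaled ribosomal RNA control signal was 1052, against 81.5 to 108. The ratio of 3-prime to 5-prime actin signal stood nearer to the others, at 1.22 against 1.07 to 1.15. Every CG difference in wild type rests on that array, so the wild-type calls of the components, and the counts of the gene lists, are also given against the transgenic vehicle array. The transgene's own gene, Nppb, was Present on 0 of the 4 arrays, which leaves the genotype labels unchecked by these data.

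In wild-type mice CG was accompanied by higher signals for 4 of 5 TGF-beta and activin ligands, for the matrix protein gene Ltbp2, for Fst and Fstl1 of the follistatin family, and for the co-receptor endoglin, while 1 of the 11 receptors and co-receptors and 1 of the 7 Smads tested were called. Of the 38 components, 10 were called higher, which is 26.3%, against 8.22% of all 12754 genes. They were Tgfb1, Tgfb2, Inhba, Inhbb, Ltbp2, Eng, Tgif1, Fst, Fstl1 and Tgfb1i1. The only component called lower was Smad3, against 4.93% of all genes called lower. In transgenic mice 2 were called higher, Ltbp2 and Fstl1, against 3.81% of all genes. Bambi alone was called lower there, against 1.4% of all genes. The median log2 difference over the 38 was 0.31 in wild type and 0.10 in transgenic animals, where the median over all genes was -0.00 and 0.00. The larger size of difference, whatever its sign, was the wild-type one for 28 of the 38 components, and for 8606 of all 12754 genes. The 28 include Inhba and Fstl3, which were Present only on the wild-type CG array.

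**Figure D1:**
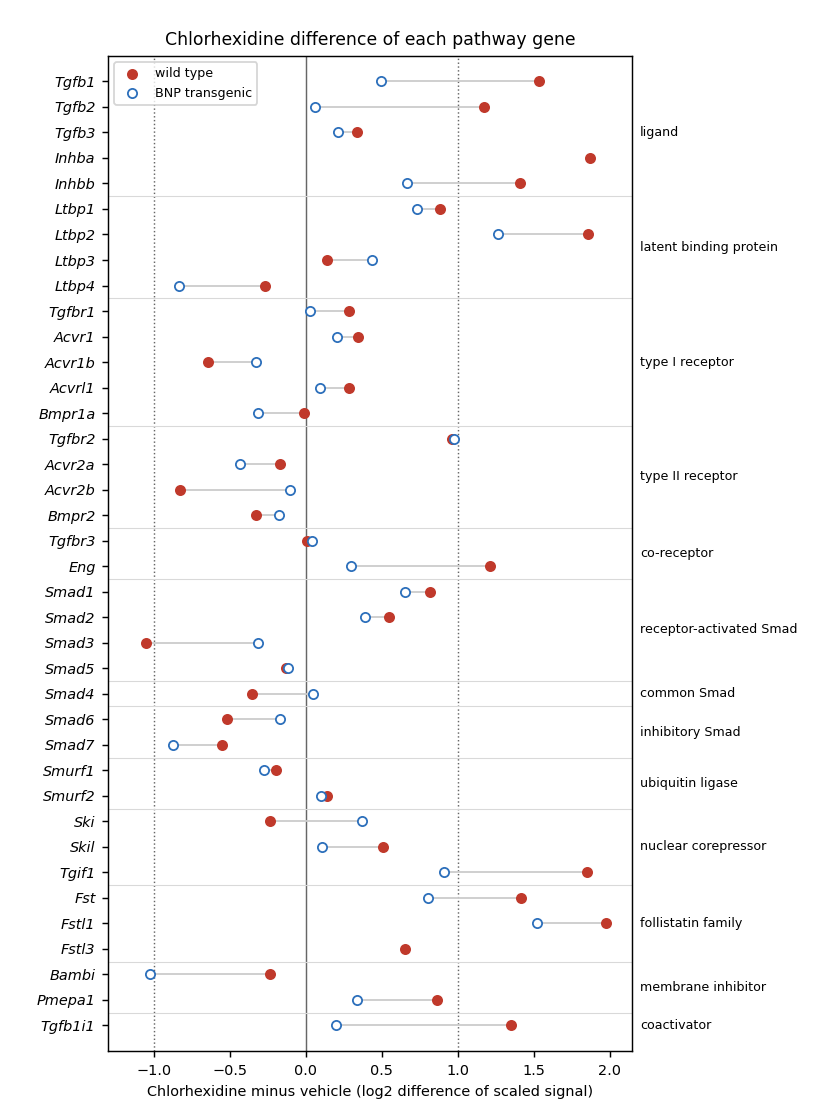
Log2 difference of CG against vehicle (x axis) for each of the 38 components (y axis, grouped by role), with a point for wild type and a point for transgenic mice, each from 1 array per group. Fstl1 and Ltbp2 lie past the 2-fold lines in both genotypes, at 1.97 and 1.52 and at 1.86 and 1.27, while 4 of the 5 ligands lie past them only in wild type and Tgfb3 in neither. No transgenic point is drawn for Inhba and Fstl3, which were Present on neither transgenic array.

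Because the wild-type vehicle array stood apart, both CG arrays were also set against the vehicle array of the other genotype. Wild-type CG against transgenic vehicle gave 9 components called higher, with 7.23% of all genes called higher. The same 7 of the original 10 passed, and Tgfb2, Eng and Tgfb1i1 did not, at log2 differences of 0.88, 0.96 and 0.85. Tgfbr2 and Smad1 passed in their place, at 1.12 and 1.04. No component was called lower in that comparison, with 3.57% of all genes called lower, since Smad3 was at -0.56. Transgenic CG against wild-type vehicle gave 3 components called higher, Tgif1, Fst and Fstl1, with 5.17% of all genes. Ltbp2 fell short there at 0.86, and Bambi and Smad7 were called lower at -1.01 and -1.03, with 2.45% of all genes. Fstl1 was the only component called in all 4 pairings of a CG array with a vehicle array.

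Among the ligands, Tgfb1, the main fibrogenic isoform, had signals of 68.8, 199, 89.5 and 126. The wild-type CG array was the highest of the 4, and both vehicle arrays lay below both CG arrays. CG exceeded vehicle 2.90-fold in wild type and 1.41-fold in transgenic animals. Tgfb2, a second TGF-beta isoform, had signals of 78.9, 178, 96.8 and 101. Here the wild-type CG array stood above 3 arrays that lay close together, with a CG fold of 2.26 in wild type and 1.04 in transgenic animals. Tgfb3, the third isoform, had signals of 242, 306, 264 and 305, so that both CG arrays were nearly equal and neither genotype reached 2-fold.

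Inhba encodes the beta A subunit that forms activin A. Its signals were 19.2, 70.2, 34.2 and 27.2, and only the wild-type CG array was Present, with detection p-values of 0.171, 0.0107, 0.130 and 0.0676. CG was nominally at least 3.66-fold above vehicle in wild type. Against the transgenic vehicle array, also not Present, the wild-type CG signal was 2.05-fold higher, so the size rests on background signals. In transgenic animals both arrays were below detection and no fold can be given. Inhbb, the beta B subunit of activin B, had signals of 61.0, 162, 69.7 and 111, or CG folds of 2.66 and 1.59. Of the 5 ligands, 4 were called in wild type and 0 in transgenic animals, and 3 were called when the transgenic vehicle array served as the base for wild-type CG. Over the 4 ligands Present on all arrays the median log2 difference with CG was 1.29 in wild type and 0.35 in transgenic animals.

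**Figure D2:**
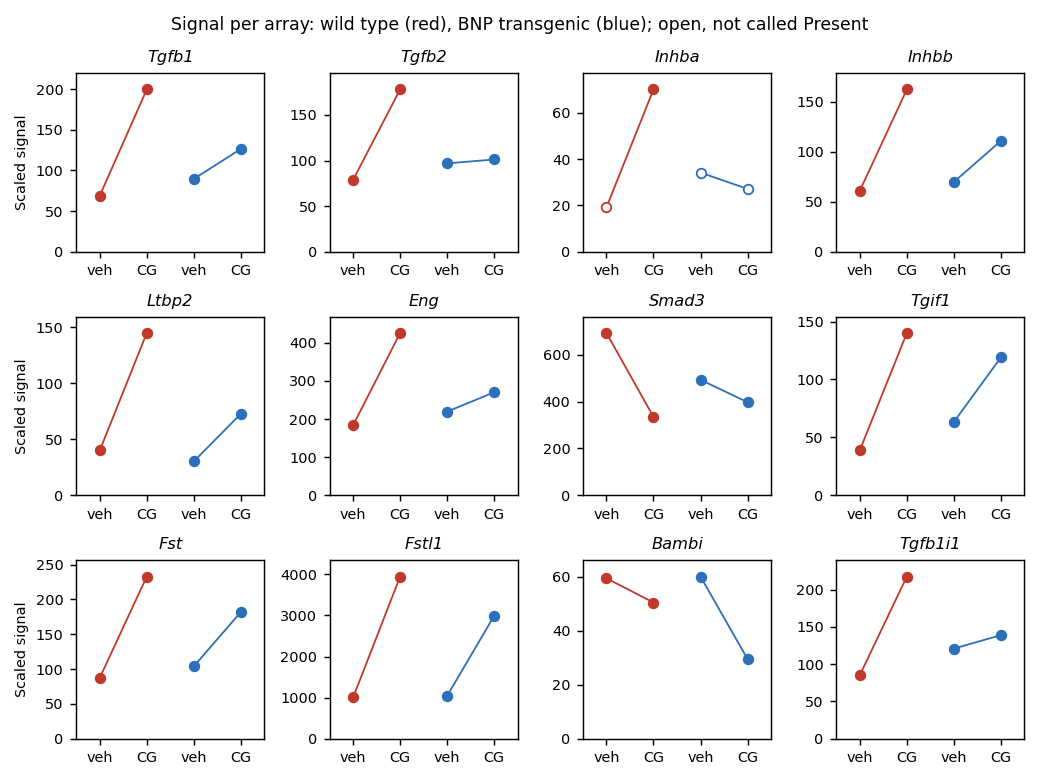
Scaled signal (linear y axes starting at 0, 1 panel per gene) on each of the 4 arrays for the components called in any comparison, with 1 point per array, red for wild type and blue for transgenic, open where not called Present, and no error bars. Tgfb1 ran from 68.8 to 199, Inhba from 19.2 to 70.2 and Fstl1 from 1004 to 3946, each with its highest point on the wild-type CG array.

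The latent TGF-beta binding proteins anchor the inactive complex in the matrix. Ltbp2, a family member that binds elastic fibres rather than latent TGF-beta itself, had signals of 40.0, 145, 30.3 and 72.7. Both CG arrays lay above both vehicle arrays, with folds of 3.62 in wild type and 2.40 in transgenic animals. Ltbp1 was 1.85-fold and 1.66-fold higher with CG, below the 2-fold rule in both. Ltbp3 had signals of 919 to 1242, with log2 differences of 0.14 and 0.43. Ltbp4 was the member with lower signals after CG in both genotypes, by 1.78-fold among transgenic animals and by less in wild type, from signals of 272, 227, 349 and 196.

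Follistatins are secreted proteins, of which Fst and Fstl3 bind and neutralise activins and Fstl1 is a related glycoprotein of mesenchymal cells. Fstl1 had signals of 1004, 3946, 1042 and 2991. The vehicle arrays were nearly equal and both CG arrays lay far above them, with folds of 3.93 in wild type and 2.87 in transgenic animals. Among all 12754 genes these differences stood at percentiles 97.2 and 97.6. Fst had signals of 87.3, 233, 104 and 182, again with both CG arrays above both vehicle arrays, and folds of 2.67 and 1.75. Fstl3 was Present only on the wild-type CG array, at 43.1, and was not called.

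For the components called higher with CG in both genotypes, and for Tgfb1 and Tgfb2, which were added after their values were seen, the sequence around the transcription start is shown so that the letters can be read beside the signals. Each window runs from 250 bases before the start to 50 after it, 300 bases in all, from RefSeq on build GRCm38.p6, printed 5′ to 3′ on the gene's own strand. Capitals mark each match to CAGACA or CAGAC, letters of a Smad-binding element, on either strand. The windows are chr16:37776805-37777104 on the plus strand for Fstl1, chr12:84876442-84876741 on the minus strand for Ltbp2, chr7:25686752-25687051 on the plus strand for Tgfb1 and chr1:186705940-186706239 on the minus strand for Tgfb2.
Fstl1: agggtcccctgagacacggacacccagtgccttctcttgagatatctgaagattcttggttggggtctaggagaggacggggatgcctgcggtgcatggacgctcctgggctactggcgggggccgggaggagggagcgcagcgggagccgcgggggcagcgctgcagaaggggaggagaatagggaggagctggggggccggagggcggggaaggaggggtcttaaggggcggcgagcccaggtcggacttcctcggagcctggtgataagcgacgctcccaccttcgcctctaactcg
Ltbp2: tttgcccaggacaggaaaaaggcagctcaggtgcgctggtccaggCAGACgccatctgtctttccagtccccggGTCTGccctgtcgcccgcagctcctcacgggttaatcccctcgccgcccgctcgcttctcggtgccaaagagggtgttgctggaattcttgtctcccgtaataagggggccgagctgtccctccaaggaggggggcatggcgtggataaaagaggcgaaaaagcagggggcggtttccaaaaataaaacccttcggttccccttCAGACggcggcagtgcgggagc
Tgfb1: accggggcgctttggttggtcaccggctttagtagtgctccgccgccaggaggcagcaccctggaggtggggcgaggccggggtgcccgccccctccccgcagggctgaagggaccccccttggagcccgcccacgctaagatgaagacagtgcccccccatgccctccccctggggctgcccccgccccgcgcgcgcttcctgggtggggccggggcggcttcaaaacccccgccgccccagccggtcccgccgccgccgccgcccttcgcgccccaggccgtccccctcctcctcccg
Tgfb2: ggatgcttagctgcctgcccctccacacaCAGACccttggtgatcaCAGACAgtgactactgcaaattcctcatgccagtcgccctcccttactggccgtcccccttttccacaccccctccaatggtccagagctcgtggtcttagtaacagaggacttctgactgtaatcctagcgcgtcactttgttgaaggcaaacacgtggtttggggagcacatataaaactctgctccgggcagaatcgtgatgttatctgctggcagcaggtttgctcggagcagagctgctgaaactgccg

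The Ltbp2 window held CAGAC beginning at bases 46 and 279, and its reverse complement GTCTG at base 75. In Tgfb2 CAGAC began at base 30 and CAGACA at base 47, and the latter contains the shorter motif. The Fstl1 and Tgfb1 windows held none of the motifs searched. GC content was 66.7% in Fstl1, 61% in Ltbp2, 77% in Tgfb1 and 54.3% in Tgfb2, with a median of 52.7% over all windows. Of the 39 components, 28 had a window in the RefSeq table, with 38 windows among them. CAGACA was found on either strand in 9 of the 38 windows (23.7%, against 21.0% of all 32851 windows), and CAGAC, a search added after the values were seen, in 17 (44.7%, against 49.6%). The palindrome GTCTAGAC was found in 1 window, that of Smad6 (0.213% of all windows), and TGANTCA, the AP-1 motif, in 1 window of Ltbp3 (7.81%). A match says only that these letters stand in the window.

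The 11 receptors and co-receptors had median log2 differences with CG of 0.01 (wild type) and 0.03 (transgenic), which stood on either side of 0 depending on the scaling, and 1 was called. Tgfbr1, the type I receptor of TGF-beta, had signals of 566, 690, 545 and 556. Tgfbr2, the type II receptor that binds the ligand first, had signals of 1086, 2119, 975 and 1917. Both CG arrays lay above both vehicle arrays by nearly the same amount, with log2 differences of 0.96 and 0.97, just below the rule. For this probe set the difference between genotypes in the response was 0.01. A second, dimmer Tgfbr2 probe set, not Present on the wild-type vehicle array, had signals of 30.1, 87.7, 56.1 and 77.8. Its differences were 1.54 in wild type and 0.47 in transgenic animals, so the near-equal response rests on the brighter probe set. The activin and bone morphogenetic protein (BMP) receptors Acvr1, Acvr1b, Acvrl1, Bmpr1a, Acvr2a, Acvr2b and Bmpr2 were not called in either genotype, and their log2 differences ran from -0.82 (Acvr2b) to 0.35 (Acvr1) in wild type.

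Eng encodes endoglin, a co-receptor abundant on endothelium. Its signals were 184, 426, 219 and 270, so that the wild-type CG array stood above the other three, and the CG folds were 2.32 and 1.23. A second Eng probe set, Present on 3 arrays, had signals of 98.2, 86.4, 94.8 and 85.6, a wild-type difference of -0.18, and the mean of both probe sets put Eng at 0.51, which is below the rule. The summed signal of 6 endothelial markers was 621, 930, 728 and 732 in the same order, and its part in the result was not tested. Of the 6, 4 were higher and 2 lower with CG in wild type. Kdr went from 65.9 to 176, Cdh5 from 157 to 149 and Tek from 120 to 115. In a bulk sample, more cells of a type and more RNA per cell cannot be told apart. Tgfbr3, or betaglycan, which presents TGF-beta to its receptors, had signals of 1187 to 1273 on the 4 arrays.

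Of the 7 Smads tested, each by its brightest probe set, 5 had lower signals with CG in wild type and 4 in transgenic animals. The median log2 differences were -0.35 and -0.11, which stayed below 0 under the 4 other scalings run. Across probe sets Present on all arrays, the wild-type differences ran from -1.05 to 0.05 for Smad3 and from -0.35 to 0.15 for Smad4. The sign of the wild-type median therefore depends on the probe sets used. Smad3, which carries much of the fibrogenic response to TGF-beta, had signals of 692, 334, 493 and 397. CG signals were 2.07-fold lower in wild type and 1.24-fold lower among transgenic animals, with the wild-type vehicle array the highest of the 4. A second, dim Smad3 probe set gave a difference of 0.05 in wild type, so the call rests on 1 probe set and on the wild-type vehicle array. Smad2, the partner with overlapping targets, had signals of 116, 169, 112 and 147, higher with CG in both genotypes and not called. Smad4, the shared partner, had signals of 1052, 823, 957 and 988. Smad1, which serves BMP receptors, was 1.76-fold and 1.57-fold higher, and Smad5 differed by -0.13 and -0.11 on the log2 scale.

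The inhibitory Smads recruit ubiquitin ligases to the receptors and are themselves induced by the pathway in many cells. Smad7 had signals of 83.2, 56.9, 74.7 and 40.8. Both CG arrays lay below both vehicle arrays, 1.46-fold in wild type and 1.83-fold in transgenic animals, without reaching 2-fold in either. Smad6 signals were 40.4 to 67.5, with the lowest on the wild-type CG array. Smurf1 and Smurf2, the ligases, had log2 differences between -0.27 and 0.14 by their brightest probe sets. Other Smurf2 probe sets Present on all arrays gave differences of up to 0.86 in wild type and 0.15 in transgenic animals.

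Among nuclear and membrane regulators, Tgif1, a corepressor of Smad2 and Smad3, had signals of 38.9, 140, 63.3 and 119. Both CG arrays lay above both vehicle arrays, with folds of 3.61 in wild type and 1.88 in transgenic animals. The corepressors Ski and Skil were not called, at -0.24 and 0.51 in wild type and 0.37 and 0.11 in transgenic animals. Tgfb1i1, or Hic-5, a focal adhesion protein and nuclear coactivator induced by TGF-beta, had signals of 85.3, 218, 121 and 139. The wild-type CG array was the highest, and the CG fold in wild type was 2.55, with a log2 difference of 0.20 among transgenic animals. Bambi, a decoy receptor without kinase activity, had signals of 59.4, 50.4, 60.0 and 29.5. It was 2.03-fold lower with CG in transgenic animals and 1.18-fold lower in wild type, so that the transgenic CG array stood below the other three. Pmepa1, a membrane protein that sequesters Smads, had log2 differences of 0.87 and 0.34.

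The genotypes were then compared under each treatment. With vehicle no component was called (0 of 38, with 1.46% of all genes called either way), and the median log2 difference, transgenic minus wild type, was 0.02 against -0.04 over all genes. With CG only Inhba was called, nominally at least 2.58-fold lower in transgenic animals, with 0.964% of all genes called lower and 1.75% either way. Ltbp2 lay just outside the rule, 1.99-fold lower. The median with CG was -0.22 over the components and -0.03 over all genes, and 28 of the 38 lay below 0, against 6791 of the 12754 genes. Inhba and Fstl3 entered the 38 only through the wild-type CG array, so the filter favoured values below 0 for them. Over the 36 components Present on all 4 arrays the median was -0.21, and 26 lay below 0. Among the ligands, the CG arrays differed (transgenic minus wild type, log2) by -0.66 for Tgfb1, -0.82 for Tgfb2, -0.01 for Tgfb3 and -0.55 for Inhbb. The vehicle arrays differed the other way, by 0.38, 0.30, 0.12 and 0.19 in the same order. All 4 vehicle values were smaller than 0.399, the SD of this comparison across probe sets sharing a gene. With CG that SD was 0.261, which Tgfb1, Tgfb2 and Inhbb exceeded in size and Tgfb3 did not. Such an SD compares probe sets on the same arrays and holds no variation between animals, RNA samples or repeat arrays. Exceeding it therefore does not set a genotype difference apart from that variation. The vehicle values also rest on the wild-type array with the differing RNA controls, and a reversal of sign between treatments was not tested. No value is given for Inhba with vehicle, since neither vehicle array was Present. These signs held for the 4 ligands under the other scalings, except that Tgfb3 turned in both comparisons under median centring. For these 4 ligands the transgenic CG response minus the wild-type one had a median of -0.89 (-0.70 to -1.34 under the other scalings). Over all genes the median of the same quantity was 0.02 (-0.44 under the deposited scaling to 0.20 under median centring). That difference has no test in this design, since 4 arrays leave no residual degrees of freedom for it, and each genotype comparison shares its arrays with the responses.

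**Figure D3:**
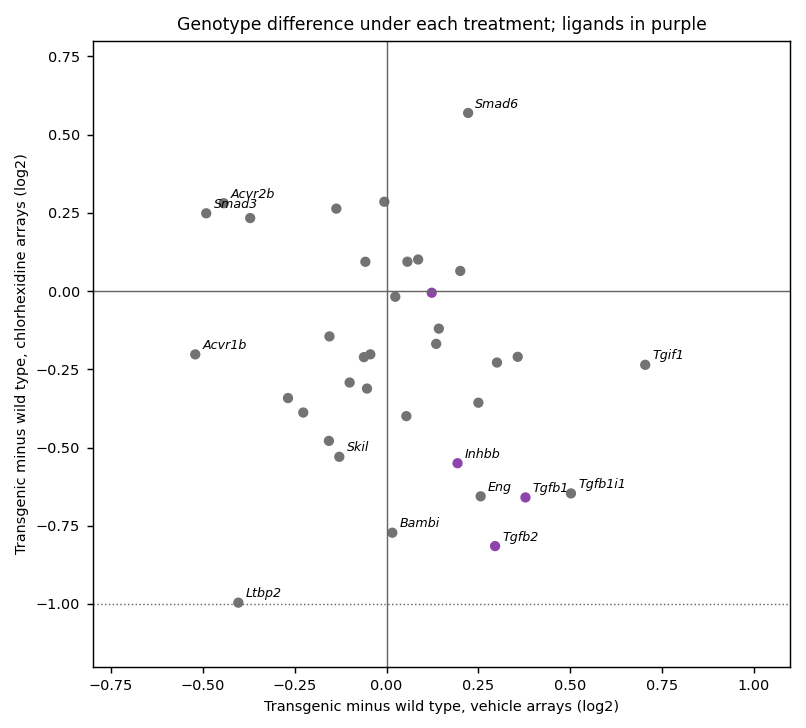
Log2 difference of transgenic minus wild-type mice with vehicle (x axis) and with CG (y axis), 1 point for each of the 36 components Present on all 4 arrays, from 1 array per group. The 4 ligands shown (purple) lie right of 0 and at or below 0 (Tgfb3 crosses both lines under median centring), and 26 of the 36 components lie below 0 on the y axis. The x values of these 4 ligands are each smaller than 0.399, the SD of the vehicle comparison across probe sets sharing a gene.

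Taking both genotypes as replicates of the treatment, an additive limma fit with terms for treatment and genotype tested CG against vehicle. It had 1 residual degree of freedom and took a difference of CG response between genotypes as error. A high p can therefore stand beside a large difference in 1 genotype, and a low p is no replicate check within a genotype. None of the 38 components passed a Benjamini-Hochberg adjusted p of 0.05 (0 of 38, with 12 of the 12754 genes, or 0.0941%), and 10 had an unadjusted p under 0.05, where 23% of all genes did. Fstl1 had the lowest adjusted p, 0.0622, with a log2 coefficient of 1.75 ± 0.24 (SE), followed by Ltbp2 with 1.56 ± 0.25 (SE) and an adjusted p of 0.0717. Tgfbr2 came next in limma at 0.97 with an adjusted p of 0.104. Limma called 14 components (36.8%, against 19.5% of all genes tested) when the variance prior followed intensity, and 13 (36.1%, against 21.4%) when the fit was limited to genes Present on all 4 arrays. With a pseudocount of 32 limma called 13 (34.2%, against 18.5%), and with the deposited scaling 3 (7.89%, against 5.66%). For the genotype term limma called 0 components and 0 genes, with 1 component, Ltbp2, and 633 genes at an unadjusted p under 0.05.

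Probe sets of the same gene give a technical check within these arrays. Of the 38 components, 19 had at least 2 probe sets Present on all 4 arrays, and their CG differences had the same sign for 13 of these in wild type and 7 in transgenic animals. Across 4431 genes, differences from probe sets of the same gene had an SD of 0.454 on the log2 scale for wild type and 0.294 for transgenic animals. For Tgfb2 the wild-type differences of 4 probe sets ran from 1.17 to 1.80, and the transgenic ones from -0.23 to 0.61. The Fstl1 pair gave 1.97 and 2.22 in wild type and 1.52 and 1.56 in transgenic animals. Smad1, with 3 probe sets, ran from 0.82 to 1.29 and from 0.39 to 0.66. Disagreement was wide for Tgfbr3, whose brighter probe set gave 0.01 in wild type and whose dim one gave 2.51, from a low signal on the wild-type vehicle array only. Acvrl1 likewise had a second probe set at 1.29 in wild type, against 0.29 for its brighter one.

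**Figure D4:**
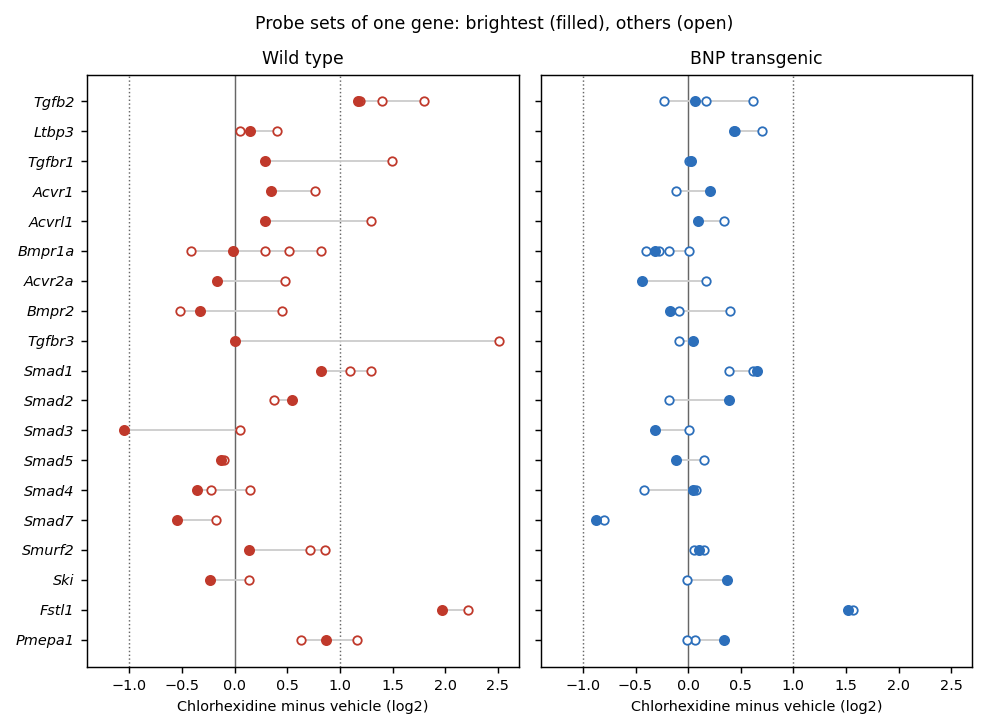
Log2 difference of CG against vehicle (x axis) for every probe set of the components with at least 2 probe sets Present on all arrays (y axis), by genotype, with 1 point per probe set. The Tgfb2 points spread from 1.17 to 1.80 in wild type, while the Tgfbr3 points lie apart at 0.01 and 2.51.

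The rest of the pathway was read from 4 lists of genes outside the 39, chosen with earlier results of these data known. Of all 12754 genes, 8.22% were called higher with CG in wild type and 3.81% in transgenic animals, and 4.93% and 1.4% lower. For wild-type CG against the transgenic vehicle array the shares were 7.23% higher and 3.57% lower. Of 27 tested response genes, 18 were called higher with CG in wild type and 10 in transgenic animals, all 10 in both genotypes, with medians of 1.77 and 0.93. Against the transgenic vehicle array wild-type CG gave 16 called higher and a median of 1.37. Cthrc1, a secreted collagen-modulating protein, was 12.8-fold and 7.0-fold higher, and Snai2, a transcription factor of mesenchymal conversion, 10.4-fold and 5.81-fold. Timp1, a metalloproteinase inhibitor, was 8.58-fold and 4.76-fold higher, and Postn, a matricellular protein, 6.86-fold and 4.92-fold. Of the 27 response genes, 25 had a lower signal on the transgenic than on the wild-type CG array, with a median log2 difference of -0.44. Of all 12754 genes, 6791 did so, with a median of -0.03. Cnn1, 1 of the 25, was Present on 1 array only, that of wild-type CG.

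Of 17 tested genes of latency and activation, 11 were called higher in wild type and 6 in transgenic animals, all 6 in both, with medians of 1.30 and 0.91. The shares called higher over all genes were 8.22% and 3.81%. Against the transgenic vehicle array wild-type CG gave 9 called higher and a median of 1.15. Fbn2, a microfibril protein that holds latent complexes, was higher by at least 16.7-fold in wild type and at least 4.17-fold in the transgenic group. Mmp14, a membrane-bound protease that can free TGF-beta, had signals of 202, 1808, 314 and 1005, or folds of 8.95 and 3.20. Mmp2, a gelatinase activated by Mmp14, was 3.96-fold and 2.57-fold higher, and Emilin1, an inhibitor of TGF-beta precursor processing, at least 3.96-fold and 2.38-fold. Of 21 regulators of receptors and Smads, 3 were called higher in wild type and 2 in transgenic animals, with medians of 0.02 and -0.03. Wild-type CG against the transgenic vehicle array gave 3 of them called higher and 1 lower. Sik1, a salt-inducible kinase, was called lower in transgenic animals, by at least 2.23-fold. The regulators higher in both were Cd109, a co-receptor that dampens signalling, and Dab2, an endocytic adaptor. Among 5 tested further ligands and receptors, only Gdf10, a TGF-beta family ligand, was higher in both, 2.65-fold and 2.05-fold. Amhr2, the receptor of anti-Muellerian hormone, was called lower in wild type, 2.14-fold. For wild-type CG against the transgenic vehicle array, 1 gene of this list was called higher and 1 lower.

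Marker sums moved with treatment beside these differences, and their part in the results was not tested. The summed signal of 6 fibroblast markers was 16416, 30466, 16628 and 26143, higher on both CG arrays; Col1a1 and Col3a1 stand in this list and among the response genes. That of 7 macrophage and monocyte markers was 4843, 7537, 5065 and 7064. The sum of 10 mesothelial markers, all Present on every array, was 893, 484, 700 and 713, lowest on the wild-type CG array. In wild type 8 of them were lower with CG and 2 higher, among the latter Wt1, at 31.5, 60.7, 21.8 and 52.3. Adipocyte markers summed to 10418, 5858, 10528 and 7850, and neutrophil markers to 82.6, 358, 202 and 2066, with Ltf and Camp Present on no array. S100a8 and S100a9 made up most of that sum on the CG arrays, and Ngp was at 22.5, 12.3, 21.5 and 42.2. Sums of B and plasma cell markers were 4178, 145, 1786 and 224, and those of T cell markers 220, 170, 133 and 86.5, with Cd4 Present on no array. Platelet markers summed to 726, 808, 672 and 1063, most of it from Pf4, at 641, 621, 572 and 722. Skeletal muscle markers were bright on every array, at sums of 68290 to 84545.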

How the data were processed

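Per the file headers, the authors' values are linear intensity signals, 1 per probe set, each with a detection call and a detection p-value. The labels' protocols give RNeasy extraction and biotin labelling by in vitro transcription. Which algorithm and scaling target were used is not given in the sources used here. Signals were the same in the series table (0 values differing).

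Each array was multiplied to a common 2% trimmed mean over 45037 non-control probe sets (factors 1.17, 0.984, 0.877 and 1.01 in the order used in the text), floored at 0.1 and put on the log2 scale. Gene symbols were updated for 34741 of 34945 probe sets with 1 symbol, through Entrez identifiers, to RefSeq of assembly GRCm38.p6. Each gene is represented by its brightest probe set (mean log2 over the arrays). Folds written as "at least" divide by the dim probe set's signal or the lowest Present signal of that array, whichever is higher.

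Limma 3.58.1 in R 4.3.3 fitted treatment and genotype on 12754 genes. The scripts were tested on simulated data. Levels of different genes were not compared, since probe sets differ in brightness.

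The components and lists were chosen with earlier results of these data known. Values on every array were given for components called in any of 4 comparisons and for 10 core genes chosen by role; up to 4 genes called in both genotypes were named per other list, by mean difference, and any called in opposite directions (none were). Alternatives were 3 other scalings, a pseudocount of 32, other probe set rules, other filters, a 1.5-fold rule, the other genotype's vehicle array and a trended variance prior.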

Additional observations from a re-analysis of the deposited data

Results flagged for a closer look

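For 3 components the CG difference had opposite signs in the 2 genotypes, and in each case the difference between genotypes was not tested. Inhba was higher with CG in wild type (log2 difference 1.87) and at -0.33 in transgenic mice, a transgenic minus wild-type difference of -2.2. Neither transgenic array was Present for Inhba, nor was the wild-type vehicle array, so the sign in transgenic mice and the size of that difference are not measured above background. Smad4 was at -0.35 and 0.05, a difference of 0.4. Ski was at -0.24 and 0.37, a difference of 0.605. The SD of such differences of differences between probe sets of a gene was 0.480, so those of Smad4 and Ski were of about the size at which probe sets of a gene differ.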

How the results depend on the processing

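The count of components higher with CG in wild type stayed within 8 to 15 over all settings run, its median between 0.0807 and 0.565, and the median of transgenic minus wild type with CG between -0.156 and -0.258. The difference of the 2 CG responses had a median of -0.0361 to -0.679, while that of all genes ran from -0.439 to 0.204. In wild type, components called lower with CG numbered 2 under quantile normalization or median centring, 0 under the deposited scaling, a pseudocount of 32, the mean of probe sets or the other vehicle array, and 3 at 1.5-fold. In transgenic mice, components called higher with CG numbered 1 with the pseudocount, 4 with the mean of probe sets and 8 at 1.5-fold. Those called lower there numbered 3 under the deposited scaling or at 1.5-fold, 2 with no filter or the other vehicle array, and 0 with the pseudocount. Between genotypes with vehicle, 1 was called under the deposited scaling, the mean of probe sets, no filter or 1.5-fold. The same count was found without probe sets named _x_at, _s_at or _a_at. With CG, the count was 2 under the deposited scaling or no filter, 8 at 1.5-fold, and 0 with the pseudocount, the mean of probe sets or Present on all 4 arrays. Except for the other vehicle array, the shares of all genes called under these settings are not given here. These counts therefore describe how the rule behaved and do not set the components apart from other genes. Among the medians over all components and the called single values, 3 changed sign, and the cause was not tested: the vehicle median under median centring (-0.106; 0.436 under the deposited scaling), the transgenic CG median under the deposited scaling (-0.106), and Smad3 in wild type with the mean of probe sets (0.12). Single differences that were not called changed sign 12 times, in 7 components (Bambi, Inhba, Smad2, Smad4, Tgfb1i1, Tgfb2 and Tgfbr1), each at most 0.392 in size as reported. The CG medians of all genes in wild type and transgenic mice moved to 0.25 and -0.20 under the deposited scaling and to -0.23 and -0.04 under median centring. Limma called 13 components Present on all 4 arrays, 3 under the deposited scaling, 13 with the pseudocount and 14 with the intensity trend, where it called 2228, 722, 2358 and 2483 genes in all, against 0 components otherwise. Of values of single components, 255 moved by less than the SD between probe sets, 26 moved by more and 1 reversed. No paired analysis was possible because each group is 1 array and the labels carry no replicate numbers. With 1 array per group, precision is limited by their number; components near background were Inhba, Fstl3 and Smad9.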

Other observations

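Among the genes of latency and activation, Adamts1 and Itgb6 are given as values, chosen after their values were seen. Adamts1, a metalloproteinase of the extracellular matrix, had signals of 198, 614, 277 and 249 (wild type with vehicle, wild type with CG, transgenic with vehicle, transgenic with CG), so that only the wild-type CG array was high, 3.11-fold above vehicle. Itgb6, the epithelial integrin subunit that pairs with the alpha V chain to activate latent TGF-beta, had signals of 24.3, 44.2, 60.2 and 47.5. It was 2.47-fold higher in transgenic than in wild-type mice with vehicle, and the wild-type vehicle array was the low one.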
